A study of Mus musculus with 9 samples.

Results

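The collagen genes of mouse liver are described here across 9 RNA-seq libraries. Symbols made of Col, a number, a and a number belong to 43 genes of the 25781 in the deposited table, and 37 of these averaged 1 scaled count or more over the 9 libraries. One of the 37, Col4a3bp, carries the name of a collagen-binding protein and encodes no collagen chain. It averaged 694 scaled counts, passed in none of the 3 comparisons and was set aside. This left 36 tested collagen genes of 42 in the table, which were 9 of 11 fibrillar collagens, 8 of 8 basement membrane collagens and 19 of 23 others. A scaled count is the number of reads of a gene in a library divided by a factor of that library. The means just above the minimum were 1.01 for Col10a1 and 1.24 for Col28a1, and those just below were 0.948 for Col9a3, 0.674 for Col22a1 and 0.673 for Col2a1. The other genes below it were Col26a1 (0.559), Col11a1 (0.467) and Col6a4 (0.307).

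Collagens are secreted proteins whose chains wind into triple helices. Fibrillar collagens such as types I, III and V assemble into banded fibrils, and their deposition by activated stellate cells and portal fibroblasts is the hallmark of liver scarring. Type IV collagen forms the sheet-like network of basement membranes, to which types XV and XVIII are attached, while the remaining collagens decorate fibrils, form beaded filaments or span cell membranes.

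Livers came from Swiss mice of 10 to 12 weeks in 3 groups of 3 libraries. One group received sodium selenite (Na2SeO3) at 50 µg/kg with β-CYP at 40 mg/kg and supplied the selenite libraries, 1 received β-CYP alone at 40 mg/kg and supplied the β-CYP libraries, and 1 was the control. The design text calls the selenite group the repair group and the β-CYP group the injury group, and no label gives the full name of β-CYP. The sources used here give neither route nor length of dosing, and mice given selenite without β-CYP were not analysed here. No label ties a library to an animal of its own. The p-values therefore reflect how far these 9 libraries spread, and that spread may be technical. Comparisons were made of β-CYP with control, of selenite with β-CYP and of selenite with control, and any pair of these comparisons shares 3 libraries. In whole liver, fewer cells of a type and less RNA per cell cannot be told apart.

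Libraries held 28630269 to 36029560 reads, of which collagens took 0.0880% to 0.112%. Control replicate 2 stood apart from the other libraries in 1 transcript, AY036118, which took 1805976 reads (5.04%) there and at most 71931 elsewhere. The 6 hepatocyte markers, none at 0 in any whole group, summed to 2504170 to 2545790 scaled counts in selenite libraries, 3111040 to 3229960 in β-CYP libraries and 2626240 to 2757330 in control libraries. With β-CYP against control 4 of them rose, beside 7.72% of all genes, and with selenite against β-CYP 4 fell, beside 12.3%. Markers of 2 other tissues moved with the groups. All 13 pancreatic acinar markers were higher in selenite libraries, with 35625 to 36721 reads in sum, against 1160 to 1253 in β-CYP libraries, where 7 of them were at 0 in every library, and 977 to 1079 in control libraries, where 8 were. The 7 spermatid markers summed to 0 to 5 reads in selenite libraries and 3 to 8 in β-CYP libraries, against 259 to 316 in control libraries. Their part in the collagen results was not tested.

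Among the collagens, Col5a3 was 2.5-fold higher with β-CYP than in controls and fell below controls with selenite, while the type IV pair Col4a1 and Col4a2 and the type I chain Col1a1 rose with selenite. The promoters of these type IV genes are shown because both genes start within the same stretch of chromosome 8 and run in opposite directions. Sequences are from RefSeq (GRCm38.p6), from 250 bases before the start site to 50 after it, each on the strand of its gene. The Col4a1 window is chr8:11312777-11313076 (minus strand) and the Col4a2 window is chr8:11312555-11312854 (plus strand). Capitals mark the 78 bases that both windows hold.
Col4a1: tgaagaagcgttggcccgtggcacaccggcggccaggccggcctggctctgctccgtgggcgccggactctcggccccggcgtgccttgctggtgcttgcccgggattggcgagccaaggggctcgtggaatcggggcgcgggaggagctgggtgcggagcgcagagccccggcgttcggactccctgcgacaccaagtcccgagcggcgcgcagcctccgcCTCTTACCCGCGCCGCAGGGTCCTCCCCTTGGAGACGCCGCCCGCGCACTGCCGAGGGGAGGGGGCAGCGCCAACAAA
Col4a2: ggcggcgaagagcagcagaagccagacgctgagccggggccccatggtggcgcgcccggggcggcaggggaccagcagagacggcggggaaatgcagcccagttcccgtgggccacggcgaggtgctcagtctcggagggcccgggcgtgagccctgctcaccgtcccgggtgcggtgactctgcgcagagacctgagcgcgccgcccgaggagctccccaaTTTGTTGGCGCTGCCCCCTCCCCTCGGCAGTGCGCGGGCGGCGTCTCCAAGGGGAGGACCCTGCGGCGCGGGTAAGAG
The start sites lie 21 bases apart, at 11312826 for Col4a1 and 11312805 for Col4a2, and in the GENCODE M21 annotation exons of both genes overlap by 22 bases. Since no source used here gives the strand setting of the counting, reads in that overlap cannot be assigned to either gene, but it is 0.295% of the exon length of Col4a1 and 0.332% of that of Col4a2. On either strand, the letters GGGCGG occur 1 time in the Col4a1 window and 3 times in the Col4a2 window, with 1 occurrence in the shared bases. CCAAT occurs 1 time in each window and not within the shared bases, and TATAAA occurs in neither.

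The Col5a3 promoter is shown because its change with selenite against β-CYP was the largest log2 change of a collagen that passed in any of the 3 comparisons. Its window is chr9:20815018-20815317 (minus strand, GRCm38.p6), and capitals mark CCAAT and GGGCGG on either strand.
Col5a3: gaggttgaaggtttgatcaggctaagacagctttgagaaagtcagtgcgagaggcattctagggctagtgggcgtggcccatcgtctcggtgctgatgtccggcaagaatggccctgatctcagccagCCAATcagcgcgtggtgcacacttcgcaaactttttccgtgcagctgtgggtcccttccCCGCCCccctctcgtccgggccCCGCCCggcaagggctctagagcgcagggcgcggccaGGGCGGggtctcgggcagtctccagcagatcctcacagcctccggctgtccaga
It holds 1 CCAAT, 3 GGGCGG and no TATAAA. No matches of different motifs overlap in these 3 windows. Of all 32851 promoter windows of the same length, 35.7% hold GGGCGG, 37.4% hold CCAAT and 13.6% hold TATAAA. A window was at hand for 31 of the 36 tested collagens, of which 20 have GGGCGG, 10 have CCAAT and 5 have TATAAA.

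Levels of different genes were compared as scaled counts per kilobase of exon (GENCODE M21), averaged over the 9 libraries. Col18a1, the type XVIII collagen from which endostatin is cut and which hepatocytes make, stood at 3405 per kilobase and took 67.9% to 73.5% of all collagen scaled counts of a library. Next were the type IV chains Col4a1 at 285 and Col4a2 at 223, and Col14a1, a collagen that coats fibrils, at 220.4 per kilobase. Col3a1, the single chain of type III collagen, was the highest fibrillar collagen at 103 per kilobase. The type I chains stood at 39.3 (Col1a1) and 35.5 (Col1a2) per kilobase, below Col15a1 at 63.6. The order within a class depended on the group for Col5a3, which was at 14.2 per kilobase in selenite libraries, 62.5 in β-CYP libraries and 24.97 in control libraries.

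**Figure D1:**
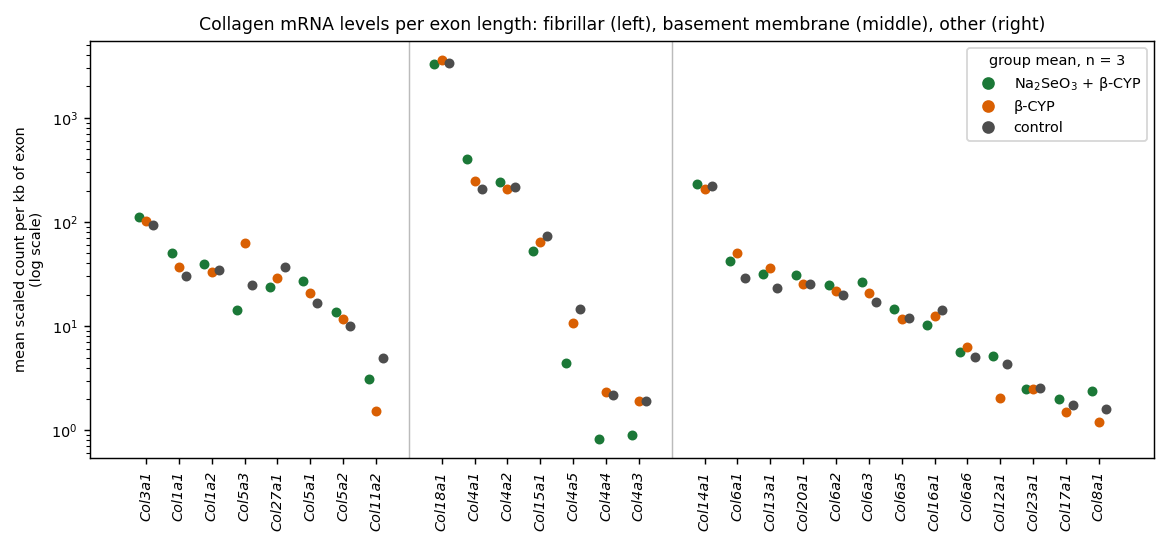
Mean scaled count per kilobase of exon (log scale) of the 28 collagen genes that averaged 10 scaled counts or more, with 1 point for each group mean of 3 libraries. Col18a1 stands above all others in every group, at 3405 over the 9 libraries, and Col5a3 is highest in the β-CYP group.

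With β-CYP against control, 6 of the 36 tested collagens passed limma's test at an adjusted p under 0.05 (16.7%), beside 16.3% of the 20145 genes tested. Col5a3, Col6a1, Col13a1 and Col18a1 rose, beside 7.72% of all genes, and Col27a1 and Col11a2 fell, beside 8.58%. The libraries of the groups did not overlap for 10 collagens (27.8%), beside 31.6% of all genes, with 8 higher with β-CYP (15.4% of all genes) and 2 lower (16.2%). The median log2 change was -0.022 over the collagens and -0.0013 over all genes tested. The share of collagens that passed was thus near that of all genes.

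With selenite against β-CYP, 9 collagens passed (25%), beside 23.9% of all genes. Col4a1, Col4a2, Col1a1 and Col12a1 rose, beside 11.6% of all genes, and Col5a3, Col4a5, Col15a1, Col27a1 and Col18a1 fell, beside 12.3%. The groups did not overlap for 19 collagens (52.8%), beside 37.8% of all genes, with 12 higher (19.3% of all genes) and 7 lower (18.5%) in selenite libraries. The median log2 change was 0.16 over the collagens and 0.017 over all genes. With libraries scaled to equal total reads in place of the deposited scaling, 9 collagens rose and 2 fell, and the median of all genes was 0.14, with 3238 genes higher and 1335 lower in place of 2337 and 2468.

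With selenite against control, 13 collagens passed (36.1%), beside 28.9% of all genes. Col4a1, Col4a2, Col1a1, Col3a1, Col5a1, Col6a1, Col6a2, Col6a3 and Col13a1 rose, beside 14.4% of all genes, and Col4a5, Col15a1, Col27a1 and Col5a3 fell, beside 14.5%. The groups did not overlap for 18 collagens (50.0%), beside 41.8% of all genes, with 10 higher (21.4% of all genes) and 8 lower (20.4%) in selenite libraries. The median log2 change was 0.22 over the collagens and 0.027 over all genes. Under equal total reads 11 collagens rose and 4 fell, with the median of all genes at 0.16 and 3979 genes higher and 1764 lower in place of 2908 and 2915, and under quantile normalization 7 rose and 5 fell. Leaving out selenite replicate 2 left 8 collagens, 4 higher and 4 lower.

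**Figure D2:**
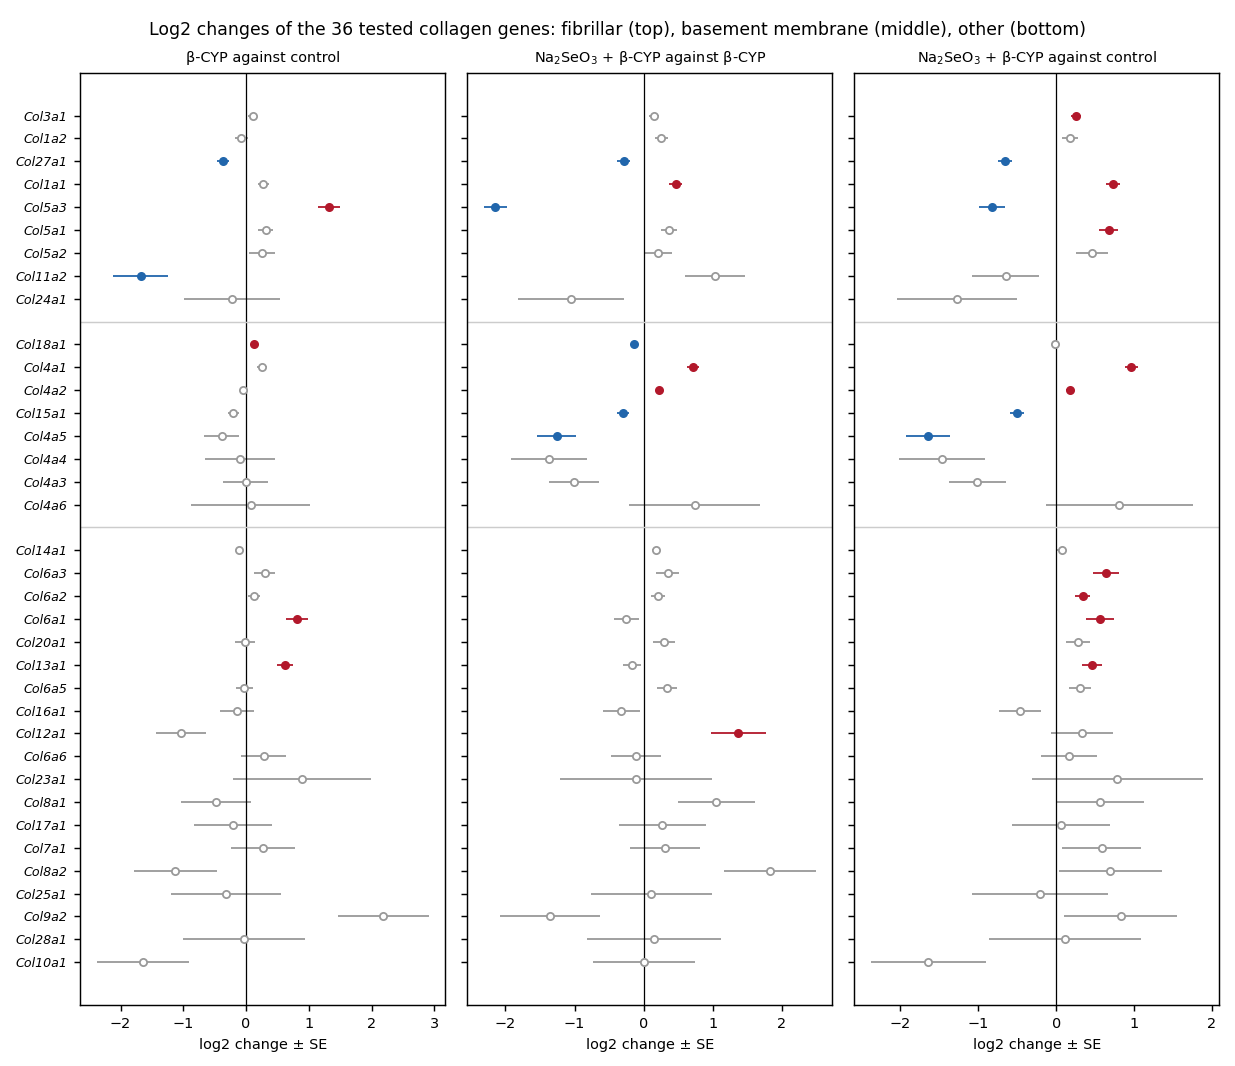
Log2 change ± SE of each of the 36 tested collagens in the 3 comparisons, from limma. Red marks genes that rose and blue genes that fell at an adjusted p under 0.05 and open grey circles genes that did not pass, and the widest bars belong to genes with few reads.

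Fibrillar collagens moved in both directions. Col5a3, a chain of type V collagen, which sits inside type I fibrils and limits their width, had 73.7, 103 and 113 scaled counts in the selenite libraries, 377, 469.7 and 431 in the β-CYP libraries and 185, 150.0 and 175 in the control libraries. The 3 groups did not overlap, with β-CYP libraries highest and selenite libraries lowest. Its log2 change was 1.32 ± 0.17 (SE; limma adjusted p = 0.000498) with β-CYP against control, a 2.5-fold higher mean. With selenite it was -2.14 ± 0.17 against β-CYP (limma adjusted p = 1.16e-05) and -0.83 ± 0.17 against control (limma adjusted p = 0.00491). All 3 calls were kept under each of the 19 alternatives tried. The other type V chains did not follow it.

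Col5a1, the chain found in most type V collagen, had 226, 226 and 232 scaled counts in the selenite libraries, 183, 156 and 195 in the β-CYP libraries and 129.5, 157 and 143 in the control libraries. Selenite libraries were the highest, while β-CYP and control libraries overlapped. It rose with selenite against control (0.67 ± 0.12, limma adjusted p = 0.00192) and had log2 changes of 0.31 ± 0.12 with β-CYP against control (limma adjusted p = 0.114) and 0.36 ± 0.12 with selenite against β-CYP (limma adjusted p = 0.0525). The second of these passed without control replicate 1 (adjusted p = 0.0496) and without β-CYP replicate 3 (0.0473). It also passed under equal total reads (0.013), with limma voom on recovered reads (0.0377) and with a minimum mean of 10 scaled counts (0.038). Col5a2, the remaining type V chain, passed in no comparison.

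Type I collagen, the main protein of scar fibrils, is built from chains of both Col1a1 and Col1a2. Col1a1 had 311, 356 and 331 scaled counts in the selenite libraries, 236, 246 and 241 in the β-CYP libraries and 197, 213 and 187 in the control libraries. The groups did not overlap in any comparison, with selenite libraries highest and control libraries lowest. It rose with selenite by 0.46 ± 0.089 against β-CYP (limma adjusted p = 0.0043) and 0.74 ± 0.089 against control (limma adjusted p = 0.000181) on the log2 scale, a 1.67-fold higher mean. With β-CYP against control the change of 0.27 ± 0.089 did not pass (limma adjusted p = 0.0675).

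Col1a2 had 499.9, 493 and 467 scaled counts in the selenite libraries, 442, 345 and 441 in the β-CYP libraries and 417, 451 and 421 in the control libraries. Selenite libraries lay above the others, and no comparison passed. Its log2 changes were -0.078 ± 0.10 with β-CYP against control (95% interval -0.30 to 0.15), 0.26 ± 0.10 with selenite against β-CYP (0.032 to 0.48) and 0.18 ± 0.10 with selenite against control (-0.046 to 0.40). Under equal total reads both selenite comparisons passed, with limma adjusted p = 0.0239 and 0.0452.

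Col3a1, which forms the reticular fibres of the liver lobule, had 1188, 1118 and 1010.0 scaled counts in the selenite libraries, 993, 1005 and 988 in the β-CYP libraries and 932, 875 and 975 in the control libraries. Selenite libraries were the highest and control libraries the lowest, with no overlap between groups. It rose with selenite against control by 0.25 ± 0.067 (limma adjusted p = 0.0187), a call lost without control replicate 2 (adjusted p = 0.0657), selenite replicate 1 (0.0631) or selenite replicate 2 (0.0583). Selenite against β-CYP gave 0.15 ± 0.067 (limma adjusted p = 0.154), which passed without selenite replicate 3 (0.042).

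Col27a1, of the fibrillar type XXVII best known from cartilage, had 324, 334 and 265 scaled counts in the selenite libraries, 378, 379 and 368 in the β-CYP libraries and 472, 494 and 483 in the control libraries. The 3 groups did not overlap, with control libraries highest and selenite libraries lowest. The fall with selenite against control was -0.66 ± 0.091 (limma adjusted p = 0.000457) and was kept under each of the 19 alternatives. Those with β-CYP against control (-0.37 ± 0.091, limma adjusted p = 0.0225) and with selenite against β-CYP (-0.29 ± 0.091, limma adjusted p = 0.0459) were near the threshold. The first was lost without any 1 of the 6 libraries compared, with adjusted p between 0.0513 and 0.0704, and the second without any 1 library other than selenite replicate 2, between 0.0542 and 0.109. Under equal total reads the second was -0.16 and did not pass (0.297).

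Col11a2, a type XI chain of cartilage fibrils, had few reads, with 25.8, 13.8 and 24.9 scaled counts in the selenite libraries, 16.6, 5.11 and 10.2 in the β-CYP libraries and 40.5, 26.2 and 34.3 in the control libraries. β-CYP libraries lay below control libraries, and it fell with a log2 change of -1.68 ± 0.43 with β-CYP (limma adjusted p = 0.0257), a call lost without control replicate 1 (adjusted p = 0.0901), control replicate 3 (0.0775), β-CYP replicate 2 (0.0711) or β-CYP replicate 3 (0.0635). Selenite libraries overlapped β-CYP libraries, and it passed in neither selenite comparison. Col24a1, at 1.95 scaled counts on average, also passed in none. Of the 9 tested fibrillar collagens, 3 passed with β-CYP against control, 3 with selenite against β-CYP and 5 with selenite against control. Beside these stood 16.3%, 23.9% and 28.9% of all genes.

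Basement membrane collagens moved in both directions. Col4a1, the more frequent chain of the common type IV trimer, had 3163, 2676 and 3171 scaled counts in the selenite libraries, 1919, 1634 and 1951 in the β-CYP libraries and 1589, 1474 and 1541 in the control libraries. Every selenite library was above every β-CYP library, and these were above the control libraries. It rose with selenite by 0.71 ± 0.084 against β-CYP (limma adjusted p = 0.000191) and 0.96 ± 0.084 against control (limma adjusted p = 1.79e-05), means 1.64-fold and 1.96-fold higher. With β-CYP against control the log2 change of 0.25 ± 0.084 did not pass (limma adjusted p = 0.0729), but it passed without β-CYP replicate 2 (adjusted p = 0.0235) or selenite replicate 2 (0.0441).

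Col4a2, the partner chain that starts beside Col4a1, had 1669, 1605 and 1576 scaled counts in the selenite libraries, 1346, 1375 and 1435 in the β-CYP libraries and 1431, 1409 and 1456 in the control libraries. Selenite libraries were the highest, and β-CYP and control libraries overlapped. It rose with selenite by 0.22 ± 0.043 against β-CYP (limma adjusted p = 0.00421) and 0.17 ± 0.043 against control (limma adjusted p = 0.0127), means 1.17-fold and 1.13-fold higher. The selenite calls of both chains were kept under each of the 19 alternatives.

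Col4a5, a type IV chain best known from the kidney filter and skin, had 35, 24.9 and 28.7 scaled counts in the selenite libraries, 80.1, 60.2 and 74.9 in the β-CYP libraries and 127, 106 and 60.6 in the control libraries. All 3 selenite libraries were below those of the other groups, which overlapped. It fell with selenite, with a log2 change of -1.25 ± 0.28 against β-CYP (limma adjusted p = 0.00967) and -1.64 ± 0.28 against control (limma adjusted p = 0.00172), and both calls were kept under each of the 19 alternatives. Its partner chains in the kidney, Col4a3 and Col4a4, were looked at after their values were seen and did not pass. An antisense-lying transcript, C430014B12Rik, covers 5.65% of the exon length of Col4a3, and its reads cannot be told apart without the strand. Col4a3 had 6.44, 8.3 and 12.5 scaled counts in the selenite libraries, 17.7, 24.5 and 14.8 in the β-CYP libraries and 25.3, 16.1 and 16 in the control libraries. Its log2 change with selenite was -1.0 ± 0.36 against β-CYP (limma adjusted p = 0.0769) and -1.01 ± 0.36 against control (limma adjusted p = 0.0649). For Col4a4 these were -1.37 ± 0.55 (limma adjusted p = 0.111) and -1.46 ± 0.55 (limma adjusted p = 0.0776). Col4a6, the last type IV chain, had at most 4.79 scaled counts in a library and passed in no comparison.

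Col15a1, of the vessel-wall basement membrane, had 311, 352 and 332 scaled counts in the selenite libraries, 374, 398 and 454 in the β-CYP libraries and 451, 463 and 496 in the control libraries. Selenite libraries were the lowest, and β-CYP and control libraries overlapped. It fell with selenite against control, with a log2 change of -0.50 ± 0.09 (limma adjusted p = 0.00222), under each of the 19 alternatives too. Against β-CYP it fell with a log2 change of -0.30 ± 0.09 (limma adjusted p = 0.0387), a call kept only without control replicate 3, β-CYP replicate 1 or selenite replicate 2 among the 9 fits that left out 1 library and lost in the other 6, with adjusted p between 0.0516 and 0.121. This change was, under equal total reads, -0.17 and did not pass (adjusted p = 0.278).

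Col18a1 had 23162, 22947 and 23089 scaled counts in the selenite libraries, 25495, 24711 and 25750.2 in the β-CYP libraries and 22881, 23032 and 24075 in the control libraries. β-CYP libraries were the highest, and selenite and control libraries overlapped. It rose with β-CYP by 0.12 ± 0.025 (limma adjusted p = 0.0101) and was lower with selenite than with β-CYP (-0.13 ± 0.025, limma adjusted p = 0.00357), means 1.09 times and 0.911 times those compared with. Both calls depended on the scaling: under equal total reads neither passed (adjusted p = 0.175 and 0.956), and under quantile normalization the second turned to 0.13 and passed (adjusted p = 0.00573). Selenite against control, not called under the deposited scaling (-0.016 ± 0.025), was at 0.33 and passed under quantile normalization (adjusted p = 1.34e-05). The summed hepatocyte markers given above were likewise highest in β-CYP libraries, and their part in the values of Col18a1 was not tested. Of the 8 basement membrane collagens, 1 passed with β-CYP against control, 5 with selenite against β-CYP and 4 with selenite against control, beside 16.3%, 23.9% and 28.9% of all genes. Of the 5, Col15a1 and Col18a1 lost their call under equal total reads.

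**Figure D3:**
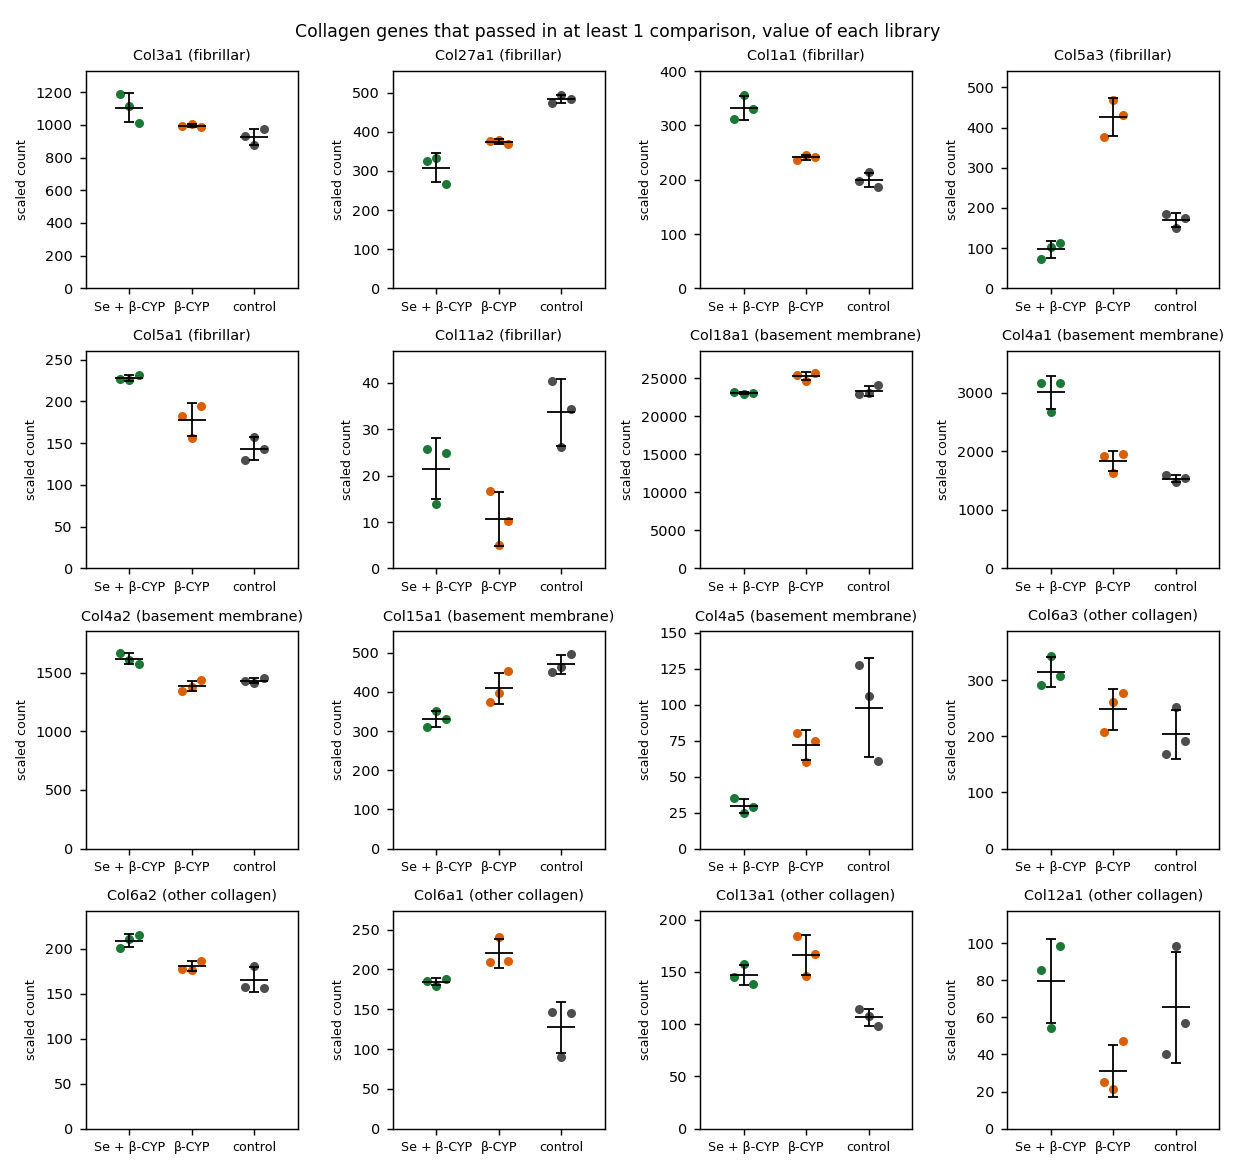
Scaled count of each library for the 16 collagens that passed in at least 1 comparison, with the mean and SD of each group (n = 3) in black. Col5a3 stands highest in β-CYP libraries, Col4a1 and Col1a1 stand highest in selenite libraries, and Col27a1 stands highest in control libraries.

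Among the other collagens, type VI forms beaded filaments around cells. With selenite against control 3 of its 5 tested chains rose, beside 14.4% of all genes. Under quantile normalization the calls of Col6a1 and Col6a2 in that comparison were lost (adjusted p = 0.089 and 0.095). Col6a5 and Col6a6 did not pass, with log2 changes of 0.31 ± 0.14 and 0.17 ± 0.36 in that comparison. Col6a3 had 292, 343 and 308 scaled counts in the selenite libraries, 207, 260.4 and 277 in the β-CYP libraries and 168, 252 and 191 in the control libraries. Selenite libraries lay above both other groups, which overlapped, and the log2 change against control was 0.64 ± 0.16 (limma adjusted p = 0.0152). The call was lost without control replicate 1 (adjusted p = 0.0568), control replicate 3 (0.0563) or selenite replicate 2 (0.061).

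Col6a2 had 201, 210.3 and 216 scaled counts in the selenite libraries, 178, 177 and 187 in the β-CYP libraries and 158, 181 and 157 in the control libraries. Selenite libraries were again the highest, and it rose against control by 0.34 ± 0.098 (limma adjusted p = 0.0277). This call was lost without control replicate 1 (adjusted p = 0.0763), control replicate 3 (0.0703), selenite replicate 2 (0.0665) or selenite replicate 3 (0.0724).

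Col6a1 followed another order, with 186, 179.9 and 188 scaled counts in the selenite libraries, 209, 241 and 211 in the β-CYP libraries and 147, 90.6 and 145 in the control libraries. β-CYP libraries were the highest and control libraries the lowest, with control replicate 2 below the other 2. It rose by 0.81 ± 0.18 with β-CYP against control (limma adjusted p = 0.0117) and by 0.56 ± 0.18 with selenite against control (limma adjusted p = 0.0398). The second call was kept only without control replicate 1 or 3 among the 9 fits that left out 1 library and lost in the other 7, with adjusted p between 0.0526 and 0.105, and without control replicate 2 its log2 change was 0.34.

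Col13a1, a collagen anchored in the cell membrane, had 145, 158 and 138 scaled counts in the selenite libraries, 184, 146 and 167 in the β-CYP libraries and 114, 108 and 98.3 in the control libraries. Both treated groups lay above the control libraries and overlapped each other. It rose by 0.63 ± 0.13 with β-CYP against control (limma adjusted p = 0.00825), which was kept under each of the 19 alternatives. With selenite against control it rose by 0.46 ± 0.13 (limma adjusted p = 0.0234), a call lost without control replicate 2 (adjusted p = 0.0505), control replicate 3 (0.0681), selenite replicate 1 (0.054) or selenite replicate 2 (0.0761).

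Col12a1 and Col14a1 lie on the surface of collagen fibrils. Col12a1 had 85.6, 54.4 and 98.7 scaled counts in the selenite libraries, 25, 21.4 and 47.1 in the β-CYP libraries and 40.5, 98.6 and 57.1 in the control libraries. Selenite libraries were above β-CYP libraries, while control libraries spread over both. It rose by 1.36 ± 0.40 with selenite against β-CYP (limma adjusted p = 0.0334), a call lost without control replicate 3 (adjusted p = 0.0569), β-CYP replicate 1 (0.101), β-CYP replicate 2 (0.111), selenite replicate 1 (0.104) or selenite replicate 3 (0.123). Col14a1 had 1569, 1746 and 1589.7 scaled counts in the selenite libraries, 1519.6, 1393 and 1421 in the β-CYP libraries and 1509.5, 1651 and 1512 in the control libraries and passed in no comparison. Selenite libraries lay above β-CYP libraries, and control libraries overlapped both. Its log2 change with selenite against β-CYP was 0.18 ± 0.06 (limma adjusted p = 0.0587). This change passed without β-CYP replicate 1 (0.049), under equal total reads (0.00557) and under quantile normalization (0.0309). It also passed with a minimum mean of 10 scaled counts (0.0472). The change of Col14a1 with selenite against control passed under equal total reads (0.0306). Of the 19 tested collagens of this class, 2 (10.5%) passed with β-CYP against control, 1 (5.26%) with selenite against β-CYP and 4 (21.1%) with selenite against control. These shares were below those of all genes, 16.3%, 23.9% and 28.9%.

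In all, 16 of the 36 tested collagens passed in at least 1 comparison, beside 37.7% of all genes, 2 of them (Col5a3 and Col27a1) in all 3, beside 5.66%, and 20 passed in none. Of the 22 with a mean of at least 25 scaled counts 15 passed somewhere, and of the 14 below that 1 did, Col11a2. The shares of all genes at these levels were not counted, so this split cannot be read as particular to collagens. Among the 20 that passed in none, log2 changes ran between -1.64 (Col10a1) and 2.19 (Col9a2) with β-CYP against control, between -1.37 (Col4a4) and 1.83 (Col8a2) with selenite against β-CYP, and between -1.64 (Col10a1) and 0.83 (Col9a2) with selenite against control. Col10a1 had no read in selenite and β-CYP libraries and Col9a2 had none in control libraries, so that their fitted changes depend on the 1 added to each value. The standard errors of the 20 ran up to 1.10, that of Col23a1.

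Summed over a class, the 8 basement membrane collagens had 28067.5 ± 393 scaled counts in selenite libraries, 29064 ± 748 in β-CYP libraries and 26907 ± 659 in control libraries (SD, n = 3 each), most of it Col18a1. The 7 other than Col18a1 summed to 5001 ± 286 in selenite libraries, 3745 ± 209 in β-CYP libraries and 3578 ± 77.4 in control libraries. Selenite libraries were thus below β-CYP libraries in the mean of the whole class and above them in the mean without Col18a1. Col4a1, the most abundant of the 7, averaged 3003 ± 283 in selenite libraries, 1835 ± 175 in β-CYP libraries and 1535 ± 58.1 in control libraries. The fibrillar collagens summed to 2709 ± 137 in selenite libraries, 2749 ± 37.3 in β-CYP libraries and 2487 ± 35.5 in control libraries. The other collagens summed to 3058 ± 121 in selenite libraries, 2724 ± 60.6 in β-CYP libraries and 2672 ± 84.4 in control libraries. All collagens together had 33834 ± 251 in selenite libraries, 34537 ± 831 in β-CYP libraries and 32066 ± 651 in control libraries.

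Chains that join in 1 protein were also compared within each library, as a ratio of scaled counts that does not depend on the library's scaling. The ratio of Col4a1 to Col4a2 was 1.89, 1.67 and 2.01 in selenite libraries, 1.43, 1.19 and 1.36 in β-CYP libraries and 1.11, 1.05 and 1.06 in control libraries. The 3 groups did not overlap, and each of the 3 comparisons gave an exact two-sided permutation p of 0.10, the smallest that 3 libraries against 3 allow. The ratio of Col1a1 to Col1a2 was 0.622, 0.723 and 0.708 in selenite libraries, 0.534, 0.713 and 0.547 in β-CYP libraries and 0.473, 0.473 and 0.446 in control libraries. Both treated groups lay above control libraries (exact permutation p = 0.10 each) and overlapped each other (p = 0.30 by the exact permutation test).

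The ratio of Col5a3 to Col5a1 was 0.325, 0.457 and 0.488 in selenite libraries, 2.06, 3.01 and 2.21 in β-CYP libraries and 1.43, 0.955 and 1.22 in control libraries. Its 3 groups did not overlap either, with β-CYP libraries highest (exact permutation p = 0.10 each). The ratio of Col6a1 to Col6a2 was 0.927, 0.855 and 0.871 in selenite libraries, 1.18, 1.36 and 1.13 in β-CYP libraries and 0.929, 0.50 and 0.927 in control libraries. β-CYP libraries were above both other groups (exact permutation p = 0.10 each), and selenite and control libraries overlapped (p = 1 by the exact permutation test). For Col6a3 to Col6a2, selenite libraries lay above control libraries (exact permutation p = 0.10). Its β-CYP libraries overlapped control libraries (exact permutation p = 0.3) and selenite libraries (exact permutation p = 0.6). For Col5a1 to Col5a2, the groups overlapped in all 3 comparisons (exact permutation p of 0.5 or more). Ratios were computed for these 6 pairs of chains in 3 comparisons. Since 0.10 is the smallest p that 3 libraries against 3 allow, no ratio could pass at 0.05 even before adjustment.

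**Figure D4:**
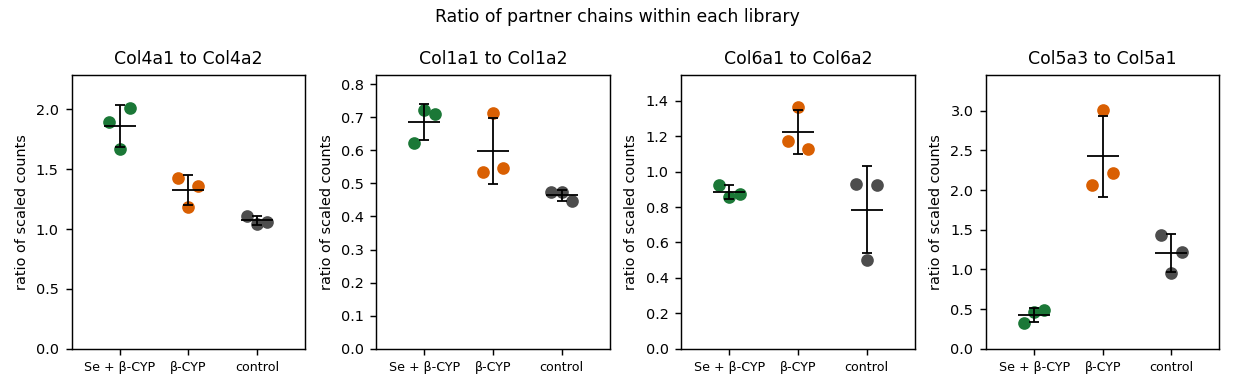
Ratio of the scaled counts of partner chains in each library, with the mean and SD of each group (n = 3) in black. The ratio of Col4a1 to Col4a2 is highest in selenite libraries, at 1.67 to 2.01, and that of Col5a3 to Col5a1 is highest in β-CYP libraries, at 2.06 to 3.01.

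The genes that make, modify, cross-link, bind and degrade collagen were counted by role. Beside these counts, 7.72% of all genes rose and 8.58% fell with β-CYP against control, 11.6% and 12.3% with selenite against β-CYP, and 14.4% and 14.5% with selenite against control. Of 20 tested genes of chain modification and folding, 2 rose and 1 fell with β-CYP against control, 3 rose and 4 fell with selenite against β-CYP, and 4 rose and 4 fell with selenite against control. P3h1, which hydroxylates prolines of collagen, had 1104, 1028 and 884 scaled counts in the selenite libraries, 484, 388 and 432 in the β-CYP libraries and 493, 460.0 and 494 in the control libraries. Selenite libraries stood apart above the others, with a rise of 1.21 ± 0.10 against β-CYP (limma adjusted p = 1.75e-05) and 1.05 ± 0.10 against control (limma adjusted p = 3.67e-05). Plod3, a lysyl hydroxylase, rose with selenite by 0.45 ± 0.061 against β-CYP (limma adjusted p = 0.000509), while its relative Plod1 fell with a log2 change of -0.30 ± 0.038 (limma adjusted p = 0.000319; 0.0654 under equal total reads).

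Colgalt2, which adds galactose to collagen, fell with a log2 change of -0.90 ± 0.16 with β-CYP against control (limma adjusted p = 0.00316) and -1.07 ± 0.16 with selenite against control (limma adjusted p = 0.000605). Sec23a, a coat protein of the vesicles that export collagen, rose with selenite by 0.27 ± 0.039 against β-CYP (limma adjusted p = 0.000636). Serpinh1, the collagen chaperone, had 477, 481 and 441 scaled counts in the selenite libraries, 484, 474 and 421 in the β-CYP libraries and 313, 406 and 415 in the control libraries and passed in no comparison. With selenite against control it passed under equal total reads (log2 change 0.45, adjusted p = 0.0105). P4ha1, a catalytic subunit of prolyl 4-hydroxylase, fell with selenite against control with a log2 change of -0.36 ± 0.10 (limma adjusted p = 0.0266), a call lost under equal total reads (0.207) and in 4 of the 9 fits that left out 1 library, those without control replicate 1 or 3 or selenite replicate 2 or 3 (0.063 to 0.0872). The calls of P4hb and Ppib, which help chains fold, were small and turned with the scaling: with selenite against β-CYP their log2 changes were -0.051 and -0.082, but 0.076 and 0.045 under equal total reads. That of P4hb was also lost without any 1 library other than control replicate 3 (adjusted p between 0.0512 and 0.137), and that of Ppib without β-CYP replicate 1 (0.0775), β-CYP replicate 2 (0.0669), selenite replicate 2 (0.054) or selenite replicate 3 (0.0604).

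Of 7 genes of propeptide removal, 2 rose with β-CYP against control, 1 fell with selenite against β-CYP, and 1 rose and 1 fell with selenite against control. Bmp1, which cuts the C-terminal propeptides, had 2920.4, 3128 and 3109 scaled counts in the selenite libraries, 4160.4, 4009.6 and 4089 in the β-CYP libraries and 3666, 3713 and 3689 in the control libraries. β-CYP libraries were highest and selenite libraries lowest, with no overlap, and it fell with selenite against β-CYP, with a log2 change of -0.42 ± 0.035 (limma adjusted p = 1.58e-05). Adamts14, which cuts N-terminal propeptides, rose by 1.27 ± 0.27 with β-CYP (limma adjusted p = 0.0105) and 1.26 ± 0.27 with selenite (limma adjusted p = 0.00647), both against control. Among 6 cross-linking enzymes, 2 rose in each comparison. Tgm2, a transglutaminase, had 7708, 8030.4 and 7871 scaled counts in the selenite libraries, 5841, 5920.0 and 5953 in the β-CYP libraries and 4723, 4611 and 4932 in the control libraries, with no overlap between any groups and a rise of 0.73 ± 0.032 with selenite against control (limma adjusted p = 1.18e-07). Loxl4, a lysyl oxidase, rose with selenite against control by 2.04 ± 0.44 (limma adjusted p = 0.00649), and its relative Loxl1 rose with selenite against β-CYP by 0.80 ± 0.19 (limma adjusted p = 0.014). The rise of Loxl4 with β-CYP against control (3.61-fold between group means, limma adjusted p = 0.0465) was lost with limma voom on recovered reads (0.133) and kept only without β-CYP replicate 2 or 3 among the 9 fits that left out 1 library (0.0627 to 0.115 in the other 7). Lox itself had few reads, 12.9, 0 and 3.83 scaled counts in the selenite libraries, 5.2, 18.4 and 21.3 in the β-CYP libraries and 0, 4.03 and 11.4 in the control libraries, and passed in no comparison.

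Of 10 collagen receptors, 0 passed limma's test with β-CYP against control, and 1 had an unadjusted p under 0.05. With selenite against β-CYP 1 rose and 2 fell, and against control 1 rose and 1 fell. Itga2, the collagen-binding integrin chain, had 15.7, 16.6 and 20.1 scaled counts in the selenite libraries, 61.4, 76.6 and 57.3 in the β-CYP libraries and 48.6, 28.2 and 50.3 in the control libraries. Selenite libraries were lowest, and it fell with a log2 change of -1.84 ± 0.27 against β-CYP (limma adjusted p = 0.000872) and -1.19 ± 0.27 against control (limma adjusted p = 0.0087). Ddr1, a receptor kinase, had 58.9, 59 and 75.7 scaled counts in the selenite libraries, 21.8, 21.4 and 28.7 in the β-CYP libraries and 54.6, 21.1 and 19.4 in the control libraries and rose by 1.39 ± 0.37 against β-CYP (limma adjusted p = 0.0228). That call was lost without β-CYP replicate 1 (adjusted p = 0.0678), β-CYP replicate 2 (0.0689) or any 1 selenite library (0.0555 to 0.085). Its rise against control (1.15 ± 0.37, limma adjusted p = 0.0442) was kept only without control replicate 1 among those 9 fits, and lost in the other 8 (0.0581 to 0.147). Itgb1, the integrin chain that pairs with Itga2, fell against β-CYP with a log2 change of -0.15 ± 0.039 (limma adjusted p = 0.017), which was -0.028 under equal total reads (0.778) and -0.048 under quantile normalization (0.473). That call was also lost without β-CYP replicate 3, selenite replicate 2 or selenite replicate 3 (0.0569 to 0.0591). Ddr2, a relative of Ddr1 on stellate cells, had 160.2, 144 and 163 scaled counts in the selenite libraries, 185, 134 and 151 in the β-CYP libraries and 185, 182 and 181 in the control libraries and passed in no comparison.

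Of 11 genes of collagen breakdown and its inhibitors, 4 rose and 1 fell with β-CYP against control, 2 rose with selenite against β-CYP, and 4 rose and 1 fell with selenite against control. Timp1, an inhibitor of matrix proteases, had 51.6, 45.2 and 31.6 in the selenite libraries and 89.4, 62.3 and 83.2 in the β-CYP libraries, against 0 reads in each control library. Set against 3 reads in each control library, the mean was at least 13.5-fold higher with selenite and at least 24.8-fold higher with β-CYP. Both passed against control (limma adjusted p = 1.02e-06 with selenite and 6.79e-07 with β-CYP), while selenite against β-CYP gave a log2 change of -0.87 ± 0.31 (limma adjusted p = 0.0784). That comparison passed with limma voom on recovered reads (adjusted p = 0.0179) and with a pseudocount of 4 (0.0385). Timp2 fell against control with a log2 change of -0.30 ± 0.084 with β-CYP (limma adjusted p = 0.0384) and -0.43 ± 0.084 with selenite (limma adjusted p = 0.00383). The first was kept only without β-CYP replicate 3 or selenite replicate 1 or 2 among the 9 fits that left out 1 library, and lost in the other 6 (0.0582 to 0.120). Timp3 had 1199, 1177 and 1265 scaled counts in the selenite libraries, 704, 776 and 746 in the β-CYP libraries and 511, 518 and 560.0 in the control libraries and rose in all 3 comparisons, by 1.19 ± 0.061 with selenite against control (limma adjusted p = 4.16e-07). Mmp14, which cuts fibrillar collagen at the cell surface, had 1099, 1118 and 1129.8 scaled counts in the selenite libraries, 739.5, 799 and 727 in the β-CYP libraries and 689, 596 and 587 in the control libraries and rose by 0.56 ± 0.071 with selenite against β-CYP (limma adjusted p = 0.000289). The 3 groups did not overlap for Timp3 or Mmp14, with selenite libraries highest. Mmp8, the neutrophil collagenase, had 35, 32.3 and 32.6 scaled counts in the selenite libraries, 25, 25.5 and 25.9 in the β-CYP libraries and 0, 3.02 and 5.71 in the control libraries and rose with β-CYP and with selenite against control (limma adjusted p = 0.00579 and 0.00171).

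Proteins laid down with fibrils were split too. Of 12 fibril partners, 3 rose and 1 fell with β-CYP against control, 2 rose and 1 fell with selenite against β-CYP, and 4 rose and 2 fell with selenite against control. Fn1, fibronectin, on which fibrils are assembled, had 95857, 105556 and 104542 scaled counts in the selenite libraries, 87327, 87147 and 87039.9 in the β-CYP libraries and 59677, 60628 and 60391 in the control libraries. Its groups did not overlap in any comparison, and it rose by 0.53 ± 0.032, 0.23 ± 0.032 and 0.76 ± 0.032 in the 3 comparisons (limma adjusted p = 2.53e-06, 0.000657 and 9.58e-08). Postn, periostin, which binds type I collagen, had 296, 302 and 243 scaled counts in the selenite libraries, 197, 119 and 130.3 in the β-CYP libraries and 131, 102 and 80 in the control libraries and rose with selenite against control by 1.44 ± 0.22 (limma adjusted p = 0.000934). Its rise against β-CYP (0.94 ± 0.22, limma adjusted p = 0.0133) was lost without β-CYP replicate 2 or 3 or selenite replicate 1 or 2 (0.0515 to 0.0542). Fmod, fibromodulin, which coats fibrils, had 33.1, 31.4 and 33.5 scaled counts in the selenite libraries, 25, 21.4 and 30.5 in the β-CYP libraries and 53.6, 53.3 and 48 in the control libraries and fell with β-CYP against control, with a log2 change of -1.0 ± 0.21 (limma adjusted p = 0.00995). Fbn1, fibrillin, rose with selenite against control by 1.20 ± 0.26 (limma adjusted p = 0.00708) and with β-CYP against control by 0.94 ± 0.26 (limma adjusted p = 0.0377), the second kept only without control replicate 2 among the 9 fits that left out 1 library and lost in the other 8 (0.0562 to 0.126). Vtn, vitronectin, rose with β-CYP against control by 0.26 ± 0.017 (limma adjusted p = 3.83e-06) and fell with selenite against β-CYP with a log2 change of -0.38 ± 0.017 (limma adjusted p = 1.79e-07). Its fall with selenite against control (-0.12 ± 0.017, limma adjusted p = 0.000512) turned to 0.019 under equal total reads and 0.046 under quantile normalization, and passed under neither.

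Of 15 basement membrane partners, 1 rose and 2 fell with β-CYP against control, 1 rose and 3 fell with selenite against β-CYP, and 2 rose and 5 fell with selenite against control. Nid2, nidogen, which links laminin to type IV collagen, had 147, 145 and 128 scaled counts in the selenite libraries, 116, 124 and 94.3 in the β-CYP libraries and 238, 245 and 272 in the control libraries. Control libraries were the highest, and it fell with a log2 change of -1.17 ± 0.13 with β-CYP (limma adjusted p = 0.0002) and -0.84 ± 0.13 with selenite (limma adjusted p = 0.000971). The laminin chain Lama3 fell against control as well, with a log2 change of -0.86 ± 0.12 with β-CYP (limma adjusted p = 0.000669) and -1.01 ± 0.12 with selenite (limma adjusted p = 0.00012). Hspg2, perlecan, the heparan sulfate proteoglycan of basement membranes, fell with selenite against β-CYP, with a log2 change of -0.43 ± 0.065 (limma adjusted p = 0.00104), where Col4a1 and Col4a2 rose. Among other laminin chains, Lamb3 fell with selenite against β-CYP with a log2 change of -0.91 ± 0.14 (limma adjusted p = 0.000945), and Lama1 rose with selenite against control by 0.87 ± 0.23 (limma adjusted p = 0.0191), a call lost without control replicate 3 or selenite replicate 3 (0.0714 to 0.0733). Lama4 rose with β-CYP against control by 0.65 ± 0.15 (limma adjusted p = 0.0153), a call lost without control replicate 2 or 3 or β-CYP replicate 2 (0.058 to 0.0584). Lamc1 rose with selenite against β-CYP by 0.48 ± 0.12 (limma adjusted p = 0.0146), a call lost without β-CYP replicate 2 or 3 or selenite replicate 2 or 3 (0.0519 to 0.0572). Against control it rose with selenite by 0.35 ± 0.12 (limma adjusted p = 0.0479), a call kept only without β-CYP replicate 1 or 2 among the 9 fits that left out 1 library (0.0601 to 0.155 in the other 7). Lama4 fell with selenite against β-CYP with a log2 change of -0.57 ± 0.15 (limma adjusted p = 0.0201), a call lost under equal total reads (0.0854) and without β-CYP replicate 1 or 2 or selenite replicate 1 or 3 (0.0514 to 0.0706). The fall of Lamb3 with selenite against control (-0.50 ± 0.14, limma adjusted p = 0.0215) was lost under equal total reads (0.109) and without control replicate 1 or selenite replicate 2 (0.0665 to 0.0681).

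The TGFB axis and growth factors drive collagen synthesis in stellate cells, but the list used here is not limited to genes that promote it. Among its 13 genes, 1 rose and 2 fell with β-CYP against control. With selenite, 7 rose and 1 fell against β-CYP, and 5 rose and 1 fell against control. Pdgfrb, the growth factor receptor of stellate cells, had 447, 502 and 513 scaled counts in the selenite libraries, 276, 290.0 and 279 in the β-CYP libraries and 233, 251 and 232 in the control libraries and rose by 0.79 ± 0.081 with selenite against β-CYP (limma adjusted p = 7.48e-05). Smad3, which carries the TGFB signal, had 559, 529 and 587 scaled counts in the selenite libraries, 319, 369 and 339 in the β-CYP libraries and 595, 622 and 611 in the control libraries. The groups did not overlap, with β-CYP libraries lowest. It fell with β-CYP against control, with a log2 change of -0.83 ± 0.073 (limma adjusted p = 3.85e-05) and was higher with selenite than with β-CYP by 0.70 ± 0.073 (limma adjusted p = 7.91e-05). Ctgf, a matrix protein induced by TGFB, had 160.2, 185 and 164 scaled counts in the selenite libraries, 284, 239 and 236 in the β-CYP libraries and 227, 218 and 255 in the control libraries and fell with selenite against control with a log2 change of -0.46 ± 0.11 (limma adjusted p = 0.0137; 0.0977 under equal total reads). Its selenite libraries were below both other groups, which overlapped. Pdgfa, a growth factor of stellate cells, had 104, 136 and 113 scaled counts in the selenite libraries, 81.1, 78.6 and 59.2 in the β-CYP libraries and 88, 108 and 113 in the control libraries and rose by 0.69 ± 0.18 with selenite against β-CYP (limma adjusted p = 0.0212), a call lost without β-CYP replicate 3 (adjusted p = 0.0687), selenite replicate 2 (0.0797) or selenite replicate 3 (0.0519). Pdgfb, another growth factor, rose with selenite by 1.01 ± 0.30 against β-CYP (limma adjusted p = 0.0354) and 1.10 ± 0.30 against control (limma adjusted p = 0.0209). Of the 9 fits that left out 1 library, the first call was kept only without selenite replicate 2 and lost in the other 8 (0.0508 to 0.126). The second was lost without control replicate 2 or 3 or selenite replicate 1 or 3 (0.0512 to 0.0810). The receptor Pdgfra rose with selenite against control by 0.92 ± 0.14 (limma adjusted p = 0.000919) and with β-CYP against control by 0.63 ± 0.14 (limma adjusted p = 0.0145), the second lost without control replicate 1 or 3 or β-CYP replicate 2 (0.0548 to 0.0564). The TGFB receptor Tgfbr2 fell with β-CYP against control with a log2 change of -0.38 ± 0.06 (limma adjusted p = 0.00189) and was higher with selenite than with β-CYP by 0.32 ± 0.06 (limma adjusted p = 0.00332).

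**Figure D5:**
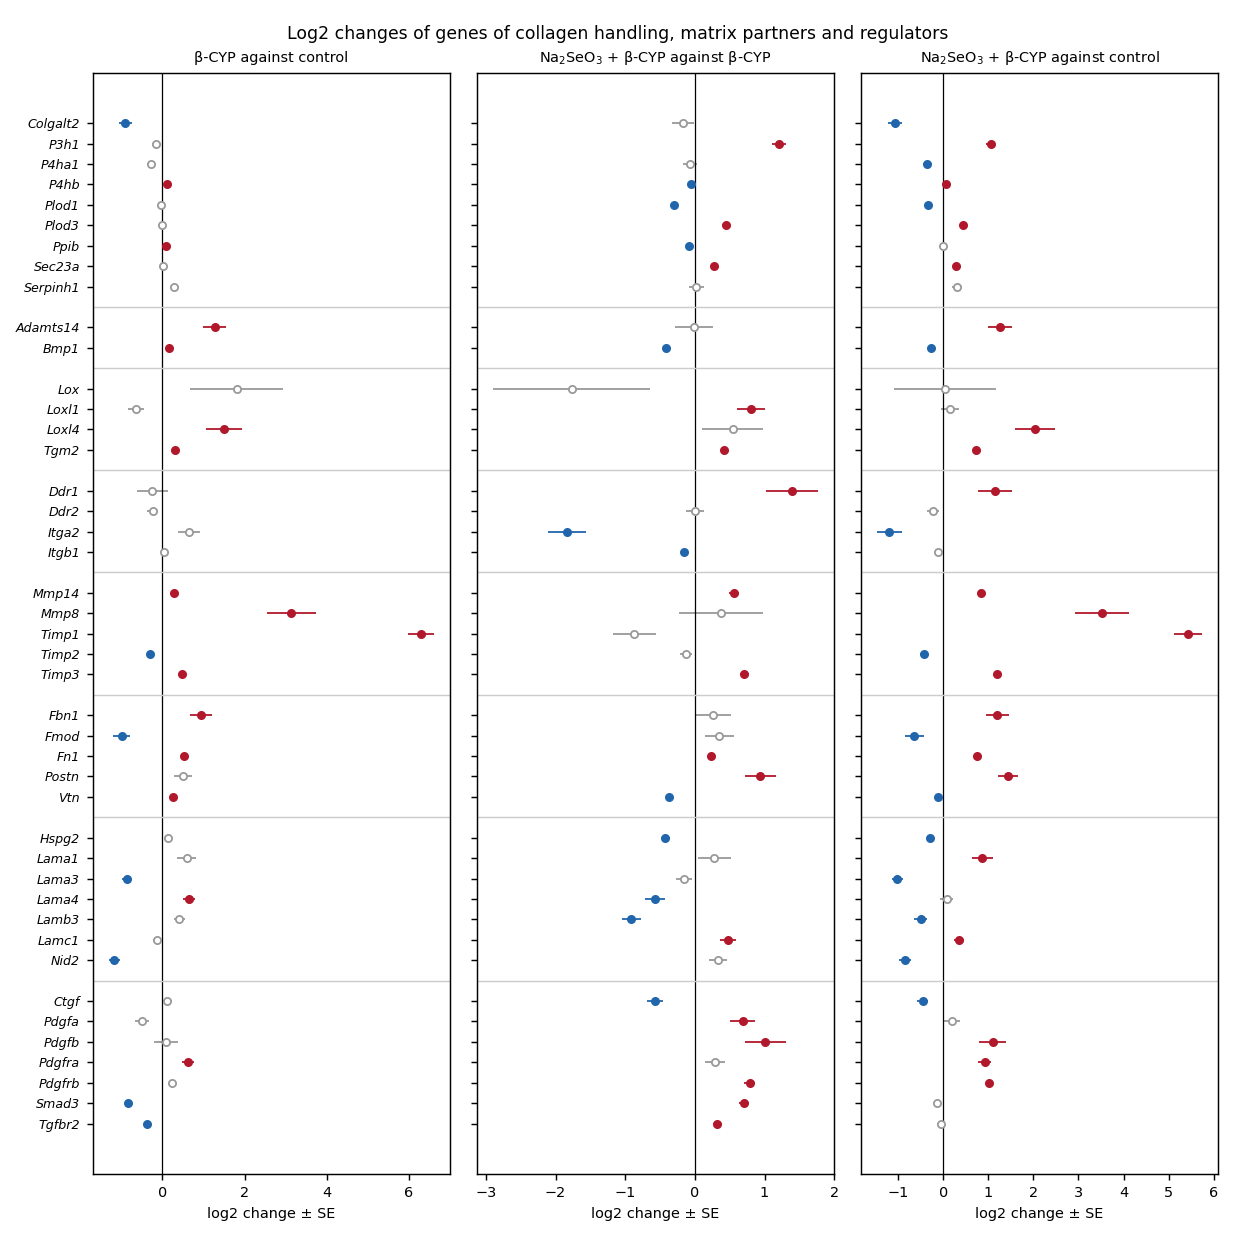
Log2 change ± SE, from limma, of genes of collagen handling, matrix partners and regulators that passed in a comparison, with Lox, Serpinh1 and Ddr2. Red marks genes that rose and blue genes that fell at an adjusted p under 0.05, open circles those that did not pass, and grey lines part the roles. Timp1 and Mmp8 stand farthest to the right with selenite against control.

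Cells known to make collagen were followed by their markers. The 10 hepatic stellate cell markers summed to 11385 to 11575 scaled counts in selenite libraries, 11014 to 11552 in β-CYP libraries and 10008 to 10383 in control libraries, and none was at 0 in every library of a group. With β-CYP against control 4 of them rose and 1 fell, with selenite against β-CYP 3 rose and 1 fell, and with selenite against control 6 rose and 1 fell. Of all genes, 7.72% rose and 8.58% fell in the first comparison, 11.6% and 12.3% in the second, and 14.4% and 14.5% in the third. The 6 markers shared by activated stellate cells and smooth muscle summed to 672 to 773 in selenite libraries, 749 to 769 in β-CYP libraries and 386 to 469.7 in control libraries, with Acta2 and Tagln higher in both treated groups than in control. The 7 portal fibroblast markers summed to 572 to 648 in selenite libraries, 568 to 637 in β-CYP libraries and 640 to 698 in control libraries, and against control Dpt rose and Gas1 fell, both with β-CYP and with selenite.

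Markers of other cell types were summed and counted likewise. Beside their counts, 7.72% of all genes rose and 8.58% fell with β-CYP against control. These shares were 11.6% and 12.3% with selenite against β-CYP, and 14.4% and 14.5% with selenite against control. The 6 cholangiocyte markers summed to 1877 to 2009 in selenite libraries, 6490 to 6843 in β-CYP libraries and 2254 to 2429 in control libraries. Of the 6, Spp1 rose with β-CYP against control and fell with selenite against β-CYP and against control, and Sox9 rose with selenite against control. No other cholangiocyte marker passed, among them Epcam, at 16.2 to 44.7 scaled counts in a library. The 4 adipocyte markers summed to 294 to 359 in selenite libraries, 57.3 to 88.8 in β-CYP libraries and 66.3 to 87.0 in control libraries, and 2 of them were at 0 in all β-CYP libraries. Most of the selenite sum was 1 gene, Cidec, at 250 to 312 in selenite, 51.8 to 76.6 in β-CYP and 37.7 to 50.6 in control libraries. With selenite 3 of the 4 rose against β-CYP, but only Cidec rose against control. There Adipoq had a log2 change of -0.29 (limma adjusted p = 0.74). The 8 sinusoidal endothelial markers summed to 9968 to 10033, 10511 to 10615 and 10588 to 10959, the 6 Kupffer cell markers to 11172 to 11185, 9323 to 9370 and 9211 to 9565, and the 5 mesothelial markers to 42.4 to 85.3, 52.0 to 80.7 and 86.0 to 117 in the selenite, β-CYP and control libraries. With β-CYP against control 3 endothelial markers rose and 1 fell, and 1 Kupffer cell marker fell. With selenite against β-CYP 2 endothelial markers rose and 3 fell, and 4 Kupffer cell markers rose. With selenite against control 1 endothelial marker rose and 3 fell, and 3 Kupffer cell markers rose. No mesothelial marker passed limma's test, and 0 of the 5 had an unadjusted p under 0.05 in any of the 3 comparisons. The part of these cell types in the collagen results was not tested.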

How the data were processed

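Mouse liver RNA was measured by RNA-seq in 9 libraries of 28630269 to 36029560 reads. The deposited table holds 1 log2 value per gene and library, which the authors made from read counts. HISAT, Cufflinks and mm9 are named in the submitters' processing notes, without versions. No source used here gives the counting tool, annotation or strand setting. Each deposited value equalled log2(reads divided by a library factor, plus 1): whole reads were recovered within 0.02 for 100% of values, and the 9 factors matched median-of-ratios factors within 1e-06. Scaled counts are 2 to the power of the deposited log2 value, minus 1.

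All 20145 genes that averaged 1 scaled count or more were tested on the deposited log2 values in 1 fit of 3 group means over the 9 libraries (limma 3.58.1 with an intensity trend, R 4.3.3, two-sided). P-values were adjusted over all genes by Benjamini-Hochberg, with a threshold of 0.05. A count test was planned for a table of counts and was not the main test, since the table holds log2 values. The log2 scale with 1 added understates changes of low genes. Values are given for collagens that passed in a comparison and for the 3 most abundant of each class, and for pathway genes that passed, at most the 4 with the largest change per role and comparison, plus Timp1, Lox, Serpinh1, Ddr1 and Ddr2. The collagens, gene lists and markers were chosen with earlier results of these data known. The fit was tested on simulated data. Alternatives were other scalings, pseudocounts of 0.1 and 4, other filters, limma voom on recovered reads, fits of 2 groups, the replicate block and leaving out each library. Exon lengths and overlaps are from GENCODE M21 on GRCm38, another build than mm9. One gene of the TGFB list is not reported here.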

Additional observations from a re-analysis of the deposited data

How the results depend on the processing

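Of 19 alternatives, 9 left out 1 library. Of the total counts of calls in a comparison, over both directions, 1 moved by over 1.5 times: without selenite replicate 2, 8 collagens passed with selenite against control (4 rose and 4 fell), in place of 13 (9 and 4). Counts in 1 direction moved by over 1.5 times in more settings, among them these. Under equal total reads 9 collagens rose and 2 fell with selenite against β-CYP, in place of 4 and 5, and 1335 genes fell, in place of 2468, while 1764 genes fell with selenite against control, in place of 2915. The 2 collagens that fell with β-CYP against control were 0 without control replicate 1, β-CYP replicate 2 or β-CYP replicate 3. Leaving out 1 library gave 4 to 7 collagens with β-CYP against control, 6 to 10 with selenite against β-CYP and 8 to 13 with selenite against control, and 2668 to 3227, 3989 to 4749 and 4994 to 5698 of all genes in the same comparisons. With limma voom on recovered reads 6, 9 and 13 collagens passed, among 3247, 4924 and 5840 genes. Deviations from the group means had correlations of -0.0368 to 0.0722 over 9 pairs of samples with the same replicate number. Over 18 pairs with different numbers they were -0.0742 to 0.0736. No label pairs the samples, and such weak correlations cannot decide whether the numbers do. With the replicate block 7, 8 and 11 collagens passed, among 2956, 4481 and 5506 genes, and Col4a1 passed with β-CYP against control (adjusted p = 0.0121).

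Among the genes named here, changes that turned sign and passed before or after turning did so under 2 scalings. Col1a2 with β-CYP against control, which passed under no setting, ran from -0.14 to 0.041 over the alternatives. Under quantile normalization Col18a1 was at 0.13 with selenite against β-CYP and 0.33 with selenite against control, P4hb at 0.20 and Ppib at 0.18 with selenite against β-CYP, and Ppib at 0.27 and Vtn at 0.046 with selenite against control. Under equal total reads P4hb was at 0.076 and Ppib at 0.045 with selenite against β-CYP, and Vtn at 0.019 with selenite against control. The cause was not tested. Under all 19 alternatives Col5a3 kept its 3 calls, and Col4a1, Col4a2, Col1a1 and Col4a5 kept both selenite calls. With β-CYP against control, the call of Col6a1 was lost when only these 2 groups were fitted (adjusted p = 0.0629). Of the 14 collagens that averaged under 25 scaled counts 1 passed, and the share of all genes at that level was not counted.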
